A study of Mus musculus with 6 samples.

Results

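The mitochondrial respiratory chain was examined in 2 populations of mouse dendritic cells that differ in the surface protein Ly6G. Its subunit genes were chosen by name: every gene on the array whose symbol begins with Ndufa, Ndufb, Ndufc, Ndufs, Ndufv, Uqcr, Cox4 to Cox8 or Atp5, or is Sdha, Sdhb, Sdhc or Sdhd, without the Ndufaf assembly factors. This gave 82 of the 18193 genes that a probe set names alone. Each gene was read from the probe set with the highest mean over the 6 arrays, so no measured difference between the groups entered the choice of probe set. Of the 82, 80 were bright enough for the test. They comprised 36 genes of complex I, 4 of complex II, 8 of complex III, 15 of complex IV and 17 of complex V. The other two, Cox7b2 and Cox8b of complex IV, were below the brightness filter.

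Both populations came from bone marrow of C57BL/6 mice, cultured with GM-CSF at 10 ng/ml. On day 6, cells carrying CD11c and MHC class II were sorted at the same time into Ly6G+ DC and Ly6G- DC, with 3 arrays per group. Both groups therefore share strain, growth factor, culture time and the CD11c and MHC II gates, and differ by Ly6G, a surface protein typical of neutrophils. The age and sex of the mice and the number pooled per culture are not given in the sources used here. Both sorts were taken from shared cultures. It is not stated which arrays go together or whether the 3 arrays of a group represent separate cultures. The p-values therefore rest on a spread between arrays that may be technical.

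The respiratory chain passes electrons from NADH and succinate to oxygen and uses the energy to pump protons across the inner mitochondrial membrane. Complex I takes electrons from NADH, complex II from succinate, complex III hands them to cytochrome c, complex IV reduces oxygen, and complex V makes ATP as protons flow back. Most subunits are encoded in the nucleus and a few in mitochondrial DNA. Dendritic cells grown in GM-CSF respire in the resting state and turn to glycolysis upon activation, whereas mature neutrophils have few mitochondria and rely largely on glycolysis.

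The nuclear genes of the chain are classically linked to the transcription factors NRF1 and GABP, the latter a member of the ETS family, and their promoters were searched for the letters of both. RefSeq promoter sequences were at hand for 67 of the 82 genes, and the 250 bases before the start were read on both strands. The palindromic NRF1 letters, GCGC followed by any 2 bases and GCGC again, occurred in 13 of 67 genes (19.4%), against 5.64% of all 27025 genes in the table and 11.02% of the 10666 whose transcripts were kept on these arrays. The ETS letters CCGGAAG occurred in 12 of 67 (17.9%), against 7.83% and 14.4%. At least 1 of the 2 motifs was present in 32.8%, 12.6% and 23.5%, respectively. The letters GGGCGG of SP1 sites were in 38.8% of the chain's promoters, 35.4% of all and 59.7% of those of kept genes, and TATAAA in 10.4%, 14.3% and 8.73%, so for both the direction depended on the background. CCAAT was in 41.8%, 37.5% and 39.7%, and AAGATGGC of YY1 sites in 1.49%, 1.83% and 2.35%. These matches describe letters and are no evidence of binding.

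4 promoters are shown, each 250 bases up to the base before the start, 5′ to 3′ on the gene's strand, with matches to the NRF1 or ETS letters in capitals. Cox6a1 (GRCm38.p6, chr5:115348959-115349208, minus strand) held both motifs, Ndufs5 (chr4:123718187-123718436, minus strand) the NRF1 letters and Uqcr11 (chr10:80406822-80407071, minus strand) the ETS letters. Sdhb (chr4:140961021-140961270, plus strand), whose signals did not overlap between the groups, held neither.
Cox6a1: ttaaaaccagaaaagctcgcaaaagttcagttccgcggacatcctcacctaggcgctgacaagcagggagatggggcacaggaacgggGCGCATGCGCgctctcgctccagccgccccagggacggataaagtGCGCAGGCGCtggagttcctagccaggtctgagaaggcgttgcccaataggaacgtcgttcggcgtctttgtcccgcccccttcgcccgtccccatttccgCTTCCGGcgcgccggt
Ndufs5: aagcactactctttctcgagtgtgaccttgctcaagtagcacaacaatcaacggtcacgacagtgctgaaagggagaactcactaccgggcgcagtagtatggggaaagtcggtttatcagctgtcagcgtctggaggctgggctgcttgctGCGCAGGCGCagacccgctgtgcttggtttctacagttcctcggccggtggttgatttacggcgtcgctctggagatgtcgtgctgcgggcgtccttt
Uqcr11: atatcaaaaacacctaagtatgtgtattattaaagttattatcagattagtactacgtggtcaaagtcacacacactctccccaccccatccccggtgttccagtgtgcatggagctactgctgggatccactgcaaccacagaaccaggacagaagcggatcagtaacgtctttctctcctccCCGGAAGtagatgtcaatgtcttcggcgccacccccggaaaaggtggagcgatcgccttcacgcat
Sdhb: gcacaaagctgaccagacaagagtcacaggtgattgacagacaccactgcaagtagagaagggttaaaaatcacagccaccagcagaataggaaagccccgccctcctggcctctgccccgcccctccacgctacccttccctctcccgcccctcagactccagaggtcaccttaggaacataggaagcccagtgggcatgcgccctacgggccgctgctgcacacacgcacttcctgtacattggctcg
In Cox6a1 the NRF1 letters lay 162 to 153 and 117 to 108 bases before the start, and the ETS letters 16 to 10 bases before it on the opposite strand. In Ndufs5 the NRF1 letters lay 98 to 89 bases before the start. In Uqcr11 the ETS letters lay 66 to 60 bases before it.

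Before the comparison, a division among the arrays has to be described. Hybridization controls, transcripts added just before hybridization, had geometric mean signals of 1529 to 2039 on Ly6G+ DC 1, Ly6G+ DC 3 and Ly6G- DC 1, here called the low side. Their signals were 6688 to 12842 on Ly6G+ DC 2, Ly6G- DC 2 and Ly6G- DC 3, the high side. For Actb, probe sets at the 3′ end outshone those at the 5′ end by a factor of 1.17 to 1.49 in the low-side arrays and of 3.98 to 6.85 in the high-side arrays. The high side thus holds 1 Ly6G+ and 2 Ly6G- arrays. The main values are therefore also given with the side as a block in the fit. Separately, the titles of the number 1 arrays, in both sorts, carry a different array name from those of the other arrays. A block by this array name is among the alternatives.

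No respiratory chain gene passed the test between the sorted populations. Limma called 0 of 80 at an adjusted p under 0.05, against 0% of the 13237 genes tested, and the smallest adjusted p among the 80 was 0.71. At an unadjusted p under 0.05 there were 0 of 80 in either direction, where 3.4% of all genes were higher and 3.51% lower in Ly6G+ DC. The median log2 fold change of the chain, Ly6G+ over Ly6G-, was 0.17, with 49 positive and 31 negative values, and the range was -0.58 to 1.004. Over all genes tested the median was -0.07, with 5863 positive values (44.3%). The median SE of the 80 was 0.38, and the median 95% interval reached 0.84 to either side on the log2 scale, or 1.79-fold. For 26 of the 80 the interval lay within 1 log2 unit of 0 on both sides. For the rest, differences of 2-fold are not excluded.

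Side, scaling and the reading of several probe sets per gene moved these values or counts. With the mean of a gene's kept probe sets the chain had 60 positive and 20 negative values. Its median was then 0.18, and 45.5% of all genes were positive. With the side as a block the median of the chain was 0.13, with 55 positive and 25 negative values, and 0 of 80 were called, against 0.068% of all genes. At an unadjusted p under 0.05 there was then 1 of 80, Atp5pb, against 7.39% of all genes. Within the low side the median was 0.15 and within the high side 0.09, each computed from only 3 arrays. Of the 80 genes, 34 had positive values on both sides and 13 negative values on both. Over all 13237 genes tested these counts were 3501 and 4296. When each array was scaled to a common median, the median of all genes shifted to 0.24 and that of the chain to 0.50, with 71 positive and 9 negative values. Relative to all genes the chain lay 0.24 higher with the authors' scaling, 0.26 with the common median and 0.14 after quantile normalization. With 1 array left out this distance ran from 0.096 without Ly6G+ DC 3 to 0.33 without Ly6G+ DC 2. The median of the chain was 0.073 without Ly6G+ DC 3. The distance was 0.16 without Ly6G- DC 3, 0.24 within the low side and 0.088 within the high side. Without Ly6G- DC 1, 12 members were higher and 4 lower at an unadjusted p under 0.05, and 0 were called after adjustment (smallest adjusted p = 0.182 by limma). Over all genes 14.6% had such an unadjusted p, both directions together. Ly6G- DC 1 is the only low-side array of its group, and Ly6G+ DC 2 the only high-side array of its group. Leaving out either array puts its whole group on a single side, which ties the sort more closely to the side.

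**Figure D1:**
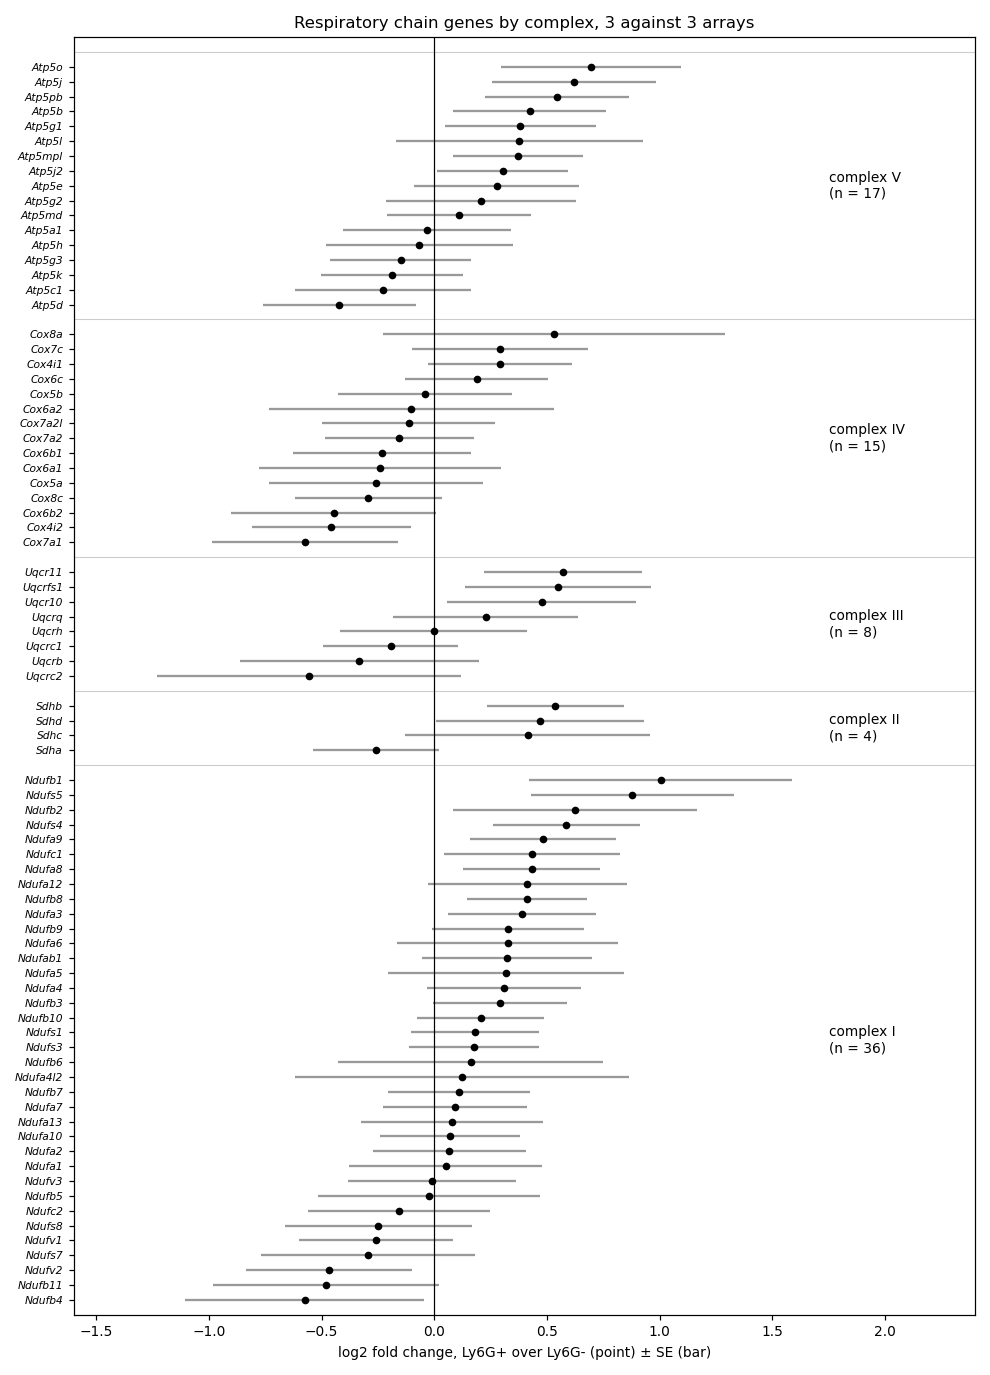
The log2 fold change of each of the 80 tested genes (points, Ly6G+ over Ly6G-, 3 arrays per group) with its SE from limma (bars), grouped by complex and sorted within it. Values run from -0.58 for Ndufb4 to 1.004 for Ndufb1, and 0 of 80 were called.

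Complex I oxidizes NADH and is the largest of the complexes. Its 36 genes had a median log2 fold change of 0.18, with 27 positive values and 9 negative values. With the side as a block the median was 0.23, with 29 positive values. Leaving out Ly6G+ DC 3 gave 0.07, and leaving out Ly6G+ DC 1 gave 0.32.

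Ndufb8, an accessory subunit, had signals of 2549, 2619 and 2773 on the Ly6G+ arrays, compared with 2163, 2005 and 1805 on the Ly6G- arrays. It was the only gene of complex I whose groups did not overlap, with all Ly6G+ arrays above. Its log2 fold change was 0.41 ± 0.26 (SE, limma adjusted p = 0.743). In all, 2 of the 80 genes lay wholly higher and 1 wholly lower in Ly6G+ DC, against 4.95% and 7.86% of all genes tested.

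Ndufs5, an accessory subunit, had the smallest p of the chain. Its signals were 770.0, 439 and 1239 on the Ly6G+ arrays, compared with 745, 321 and 266 on the Ly6G- arrays. Ly6G- DC 1 lay among the Ly6G+ arrays, and the 3 high-side arrays were the 3 lowest. The log2 fold change was 0.88 ± 0.45, with a limma adjusted p of 0.71, and 0.47 ± 0.28 with the side as a block. Ndufs4, whose loss impairs assembly of complex I, had signals of 872, 682 and 1134 against 846, 499.6 and 459.6, and a log2 fold change of 0.58 ± 0.33.

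Ndufb1, a small accessory subunit, had the highest value of the chain, 1.004 ± 0.58, and was dim. With the side as a block its value was 0.68 ± 0.54. Within the low side it was -0.32 and within the high side 1.67. Its signals were 232, 186 and 146 in Ly6G+ DC, compared with 234, 85.9 and 23.7 in Ly6G- DC, the last below that array's 40th percentile of 61.7. Ndufb4 had the lowest value, -0.58 ± 0.53, and was dim as well, with signals of 30.6, 87.6 and 25.7 against 64.5, 65.3 and 86.0. Both extremes thus came from dim probe sets. The 2 brightest probe sets of the complex belonged to Ndufa1 and Ndufv3. Ndufa1, needed to build the membrane arm, had 4767, 12247 and 7795 in Ly6G+ DC, compared with 4823, 9821 and 8648 in Ly6G- DC. Ndufv3, a subunit of the NADH-binding module, had 6266, 11454 and 8088 against 6081, 10506 and 9283. Their log2 fold changes were 0.05 ± 0.43 and -0.01 ± 0.37, and in both genes the number 1 array was the lowest of its group.

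Complex II is succinate dehydrogenase and belongs to the citric acid cycle as well. Sdhb, its iron-sulfur subunit, had signals of 1752, 1668 and 2149.9 in Ly6G+ DC, compared with 1392, 1621 and 899.7 in Ly6G- DC. The groups did not overlap, although Ly6G+ DC 2 and Ly6G- DC 2 were close. The log2 fold change was 0.54 ± 0.30 (limma adjusted p = 0.719). For Sdha, the flavoprotein that oxidizes succinate, the probe sets differed in sign. The representative one had -0.26 ± 0.28 and signals of 1316, 1764 and 1425 against 1896, 2030.0 and 1481. Another had 0.45 ± 0.39, with 1913, 1088 and 2038 against 1870, 775 and 1142, and a dim one -0.04 ± 0.63. The membrane anchors Sdhc and Sdhd had 0.41 ± 0.54 and 0.47 ± 0.46, which were 0.001 and 0.05 with the side as a block. The median of the 4 genes was 0.44, 0.02 with the block, -0.22 within the low side and 0.27 within the high side. Leaving out 1 array gave 0.036 (Ly6G+ DC 1) to 0.75 (Ly6G- DC 1), with 0.09 without Ly6G- DC 3 and 0.26 without Ly6G- DC 2.

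Complex III carries electrons from ubiquinol to cytochrome c. Its 8 genes had a median of 0.11, with 4 positive and 4 negative values, and 0.06 with the side as a block. Leaving out Ly6G+ DC 2 gave 0.44 and leaving out Ly6G- DC 1 gave 0.47, and the median was -0.06 within the low and -0.10 within the high side. Uqcr11, a small subunit, had the highest value, 0.57 ± 0.35, with signals of 1176, 683 and 1608 in Ly6G+ DC, compared with 935, 675 and 612 in Ly6G- DC. Uqcrc2, a core protein, had the lowest, -0.56 ± 0.67, with signals of 1730.2, 5657 and 4699 against 1622, 8354 and 10816. Its number 1 arrays were low in both groups, and with the block its value was 0.03 ± 0.42. Another probe set of Uqcrc2 had 3110, 2656 and 3329 against 3103, 2739 and 2833, and a value of 0.06 ± 0.28 without the block. Uqcrfs1, the Rieske iron-sulfur protein, had 0.55 ± 0.41 and Uqcrh, the hinge protein, -0.004 ± 0.42 before and -0.35 ± 0.22 with the block. Uqcrb, which binds ubiquinone, had -0.33 ± 0.53.

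Complex IV, cytochrome c oxidase, was the only complex with mostly negative values, 11 of 15, and a median log2 fold change of -0.16. With the side as a block the median was 0.08 and 9 of 15 were positive, and with arrays scaled to a common median it was 0.18. Leaving out Ly6G+ DC 2 gave -0.42, and leaving out Ly6G- DC 1 gave -0.36. Cox4i1, the common form of subunit 4, had signals of 8054, 8061 and 8586 in Ly6G+ DC, compared with 8580.4, 6218 and 5709 in Ly6G- DC. The Ly6G+ arrays were close to each other, and Ly6G- DC 1 lay beside them. The log2 fold change was 0.29 ± 0.32, with a 95% interval of -0.41 to 0.99.

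Several subunits of complex IV exist in tissue forms. The widely expressed forms Cox6a1, Cox6b1 and Cox7a2 had log2 fold changes of -0.24 ± 0.54, -0.23 ± 0.40 and -0.16 ± 0.33. With the side as a block these were 0.21, 0.02 and -0.02. The other kept probe sets of these genes had positive values, 0.55 ± 0.39, 0.26 ± 0.39 and 0.11 ± 0.29 without the block. Cox4i2, a form of lung known for its response to low oxygen, had signals of 144, 113 and 97.5 against 162, 128 and 219, and a value of -0.46 ± 0.35. The muscle forms Cox6a2 and Cox7a1 had -0.10 ± 0.63 and -0.57 ± 0.41. The testis form Cox6b2 had signals of 60.6, 59.9 and 38.2 in Ly6G+ DC, compared with 92.4, 75.6 and 64.3 in Ly6G- DC. It was the 1 gene of the chain whose Ly6G+ arrays all lay lower, with a value of -0.45 ± 0.45. The muscle form Cox8b stayed under the 40th percentile on all arrays, with 39.4 as its highest signal. Ndufa4, named for complex I but now counted with complex IV, had 0.31 ± 0.34, and its relative Ndufa4l2, known from low oxygen, 0.12 ± 0.74. By their names, both stand among the genes of complex I in the counts and medians given here.

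Cox8a, the common form of subunit 8, had the largest SE of the chain. Its signals were 8245, 1309.6 and 4817 in Ly6G+ DC, compared with 8518, 1309.9 and 1537 in Ly6G- DC. The 3 high-side arrays lay below the 3 low-side arrays, in both sorts. The log2 fold change was 0.53 ± 0.76 and turned to -0.27 ± 0.27 with the side as a block. Cox5a, which lies on the matrix face, went the other way, with 7265, 18073 and 13454 against 8379, 17358 and 20872, and a value of -0.26 ± 0.47.

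Complex V is the ATP synthase. Its 17 genes had a median of 0.28, with 11 positive values, but 0.03 and 9 positive values with the side as a block, 0.50 without Ly6G- DC 1 and 0.08 without Ly6G- DC 3. Atp5o, a stalk subunit, had the highest value, 0.70 ± 0.40, with signals of 2142, 1667 and 2876 in Ly6G+ DC, compared with 2246, 1393 and 759.8 in Ly6G- DC. Atp5d, the delta subunit, had the lowest, -0.42 ± 0.34, with signals of 5596, 7659 and 4878 against 6109, 8543 and 9651. Groups overlapped in both genes.

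Atp5pb, a subunit of the outer stalk, had the smallest p of the chain once the side was a block. Its signals were 4352, 7255 and 6381 in Ly6G+ DC, compared with 4229, 4490.4 and 3413 in Ly6G- DC, so that only Ly6G+ DC 1 overlapped the other group. The log2 fold change was 0.54 ± 0.32 and 0.60 ± 0.26 with the block (limma adjusted p = 0.725 and 0.662). Another probe set of Atp5pb had 1982, 1729 and 2987 against 1704, 896 and 741, with no overlap and a value of 1.05 ± 0.38 (adjusted p = 0.836 over probe sets). The catalytic beta subunit Atp5b had 0.42 ± 0.34 and the alpha subunit Atp5a1 -0.03 ± 0.37. The brightest probe sets, of Atp5c1 and Atp5h, had -0.23 ± 0.39 and -0.07 ± 0.41. Atp5g1, Atp5g2 and Atp5g3 encode the same ring subunit and had 0.38 ± 0.34, 0.21 ± 0.42 and -0.15 ± 0.31.

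**Figure D2:**
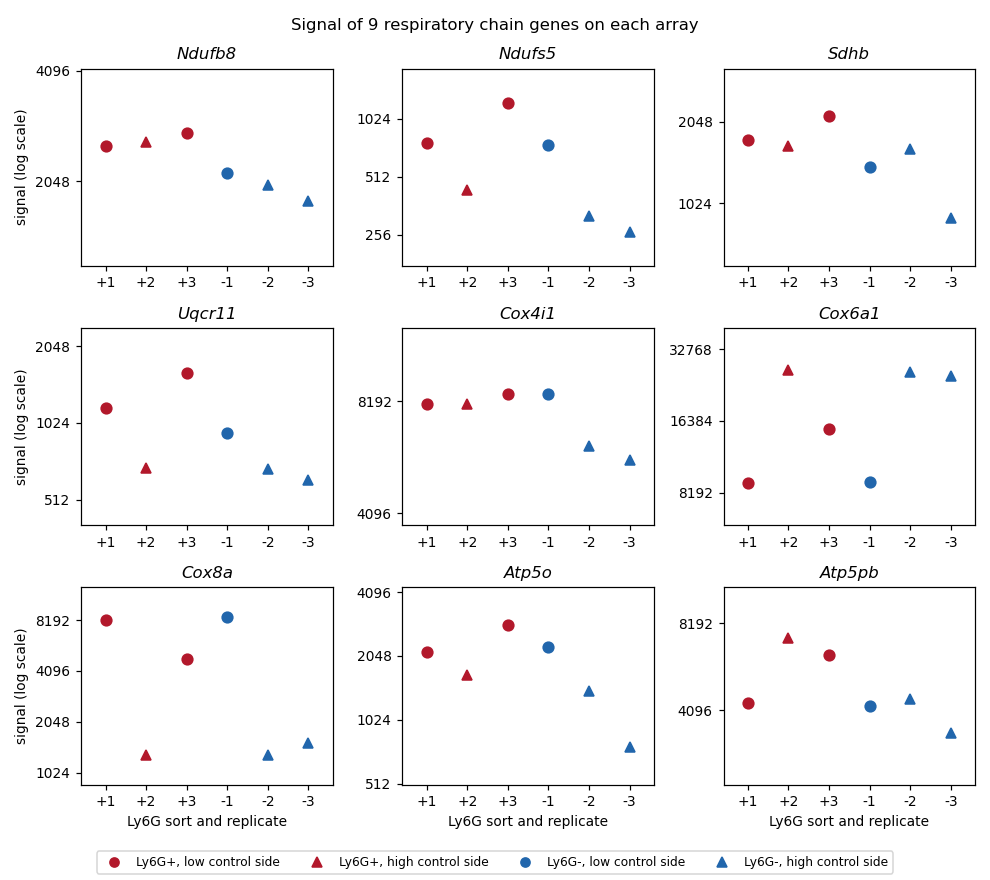
Signal of 9 genes on each array (log scale), with Ly6G+ arrays in red and Ly6G- arrays in blue, and triangles for the high control side. Ndufb8 and Sdhb do not overlap between the sorts, while the triangles of Cox6a1 lie above and those of Cox8a below all circles.

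Signals of the chain varied with the division of the arrays. The difference between the high and the low side, averaged over both sorts, exceeded the difference between the sorts in 67 of 80 genes (83.8%), against 57.2% of all genes. Its median size was 0.72 on the log2 scale in the chain and 0.41 over all genes, while the sort had median sizes of 0.29 and 0.33. The genes of the chain did not share 1 direction: 38 lay higher and 42 lower on the high side. The direction was the same within Ly6G+ and within Ly6G- DC for 73 of 80 genes (91.2%), against 68.4% of all genes. Extremes were Cox8a at -2.41, Atp5l, a membrane subunit of the ATP synthase, at -1.63, Cox6a2 at 1.66 and Uqcrc2 at 1.76. No test was made of these differences, since the sides were divided by the arrays' own controls.

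By complex, medians of the high minus the low side were 0.56 in complex I and 0.44 in complex IV, and -0.72, -0.87 and -0.53 in complexes II, III and V. The sorts are unevenly spread over the sides, and the group difference carries part of the side difference. Of the 42 genes lower on the high side 36 had positive values of Ly6G+ over Ly6G- (85.7%, all genes 60.1%), and of the 38 higher there 13 (34.2%, all genes 31.3%). With the side as a block these were 27 of 42 and 28 of 38.

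**Figure D3:**
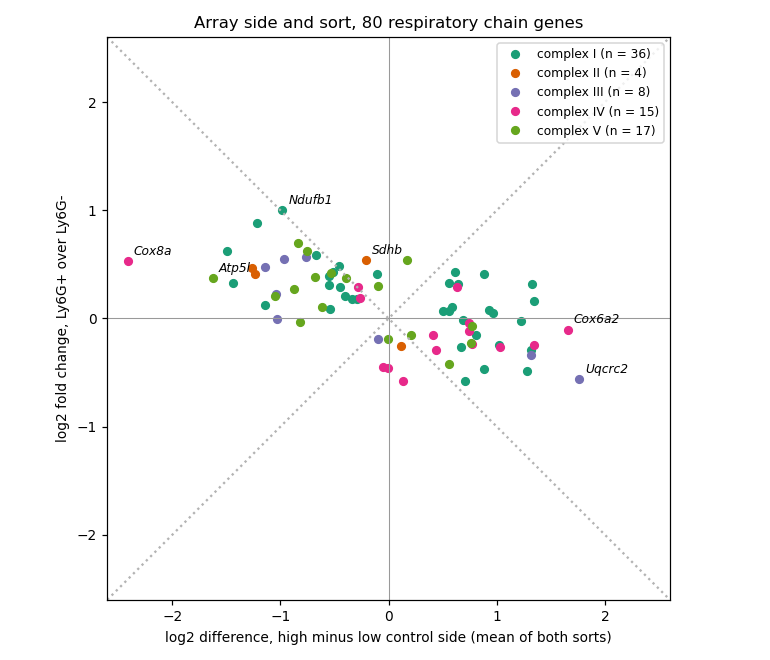
For 80 genes, the log2 difference of the high minus the low control side (x axis, mean over both sorts) against the log2 fold change of Ly6G+ over Ly6G- (y axis), coloured by complex, with dotted lines where both are equal in size. Points spread from -2.41 to 1.76 along x and only from -0.58 to 1.004 along y.

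Probe sets of the same gene often disagreed over the sides. Of 46 members with more than 1 kept probe set, 26 (56.5%) had 1 probe set higher and 1 lower on the high side by over 0.5 log2 units, against 19.3% of 5793 genes. The examples given here were picked with their values in view. The representative probe set of Cox6a1 had 9000.1, 26776 and 15229.5 in Ly6G+ DC, compared with 9138, 26278 and 25260.3 in Ly6G- DC. Its other probe set had 4127, 2585 and 4877 against 4145, 2149 and 1831. One was higher and the other lower on the high side, by 1.34 and -0.92, and their values of Ly6G+ over Ly6G- were -0.24 ± 0.54 and 0.55 ± 0.39.

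Uqcrb gave the same picture, with side differences of 1.31 and -0.57 and sort differences of -0.33 ± 0.53 and 0.69 ± 0.33. Ndufb6, an accessory subunit of complex I, had side differences of 1.35 and -0.76, and Sdhd -1.27 and 1.01. Probe sets of 24 of the 46 genes (52.2%) differed in the sign of the sort difference, and so did those of 52.4% of all genes. Over all 156 kept probe sets of the chain, limma called 0, with 2 higher and 0 lower in Ly6G+ DC at an unadjusted p under 0.05 and a smallest adjusted p of 0.836. Over all 28254 kept probe sets 0% were called, 2.75% were higher and 2.87% lower at that unadjusted p. The 2 were the second probe set of Atp5pb and one of the testis form Cox8c. The brighter, representative probe set of Cox8c had -0.29 ± 0.33, with overlapping groups.

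The kind of probe set moved with the side. Members read from probe sets whose name ends in a plain _at had a median side difference of -0.52, with 6 of 32 higher on the high side (18.8%, all genes 52.8%). Those ending in _a_at, which match several transcripts of 1 gene, had 0.68, with 20 of 30 higher (66.7%, all genes 52.5%). Those ending in _s_at had 0.50, with 9 of 13 higher (69.2%, all genes 62.0%). Those ending in _x_at had 0.74, with 3 of 5 higher (60%, all genes 82.9%). The part of probe placement, RNA integrity and hybridization in the differences between sides was not tested.

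**Figure D4:**
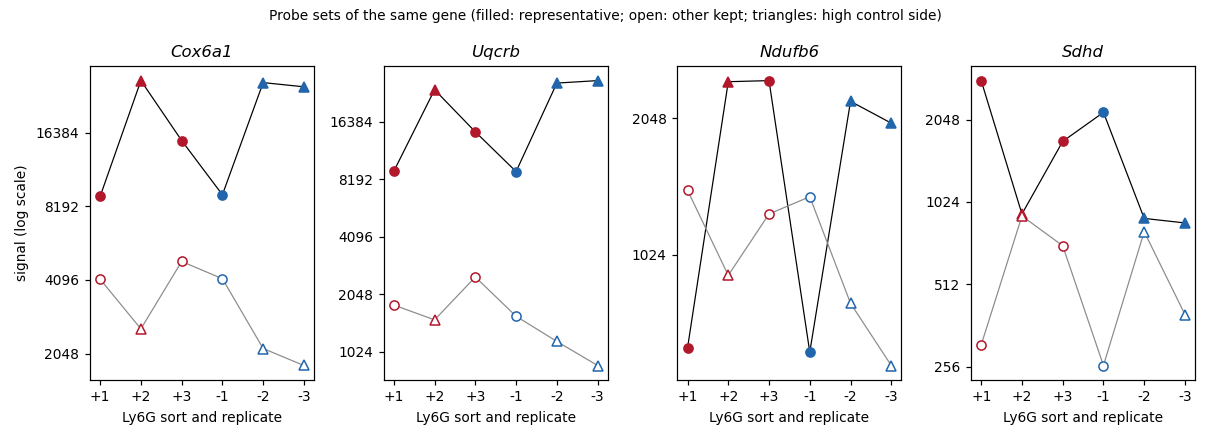
Signal of the kept probe sets of Cox6a1, Uqcrb, Ndufb6 and Sdhd on each array (log scale), filled for the representative and open for the other one, with triangles for the high control side and lines joining points of 1 probe set only. In each gene the 2 probe sets move in opposite directions between circles and triangles, by 1.34 and -0.92 for Cox6a1.

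Promoter letters were set beside the comparison of the sorts. The 13 tested members with the NRF1 letters had a median log2 fold change of -0.07 (range -0.58 to 0.88), the 12 with the ETS letters 0.17, and the 43 with neither 0.20. Among the promoters shown, Cox6a1 had -0.24, Ndufs5 0.88, Uqcr11 0.57 and Sdhb 0.54.

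Genes around the chain were taken from lists. The carriers and partners of the chain (13 of 15 tested) had 9 positive values, a median of 0.25 and 0 called, with 0 at an unadjusted p under 0.05. Cyc1, a cytochrome of complex III, had -0.10 ± 0.28, and Cycs, cytochrome c, 0.17 ± 0.50. The bright carriers Slc25a4, an ATP and ADP exchanger, and Vdac1, a pore of the outer membrane, had -0.59 ± 0.55 and -0.40 ± 0.37, and Etfa, which feeds electrons from fatty acids, 0.83 ± 0.48. ND5, a complex I subunit encoded in mitochondrial DNA and no member by its name, had signals of 14862, 21669.8 and 10768 against 15149, 21032 and 23041, and a value of -0.36 ± 0.40.

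Assembly factors (42 of 45 tested) had 18 positive values, a median of -0.04, 0 called and 0 at an unadjusted p under 0.05. Ndufaf1, an early assembly factor of complex I, had the highest value, 1.17 ± 0.54, with signals of 273, 275 and 339 in Ly6G+ DC, compared with 327, 114 and 42.2 in Ly6G- DC. Sco2, which delivers copper to complex IV, had the lowest, -0.94 ± 0.45. The bright factors Cox17, a copper chaperone, and Coa5 had -0.28 ± 0.51 and 0.13 ± 0.27. Coenzyme Q synthesis (10 of 11 tested) had a median of 0.12, which was -0.026 with the side as a block, 8 positive values and 0 called, with Coq9 at -0.56 ± 0.28 and no overlap, and Coq4 at 0.74 ± 0.53, the lowest and highest values of the list.

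The citric acid cycle with pyruvate dehydrogenase (17 of 19 tested) had a median of 0.10, 11 positive values and 0 called. Dld, a dehydrogenase shared by several complexes, had an unadjusted p of 0.049, with 416, 272 and 453 in Ly6G+ DC, compared with 436, 114 and 51.5 in Ly6G- DC. Its value was 1.29 ± 0.58 (limma adjusted p = 0.71), and Ly6G- DC 1 overlapped the Ly6G+ arrays. Cs, citrate synthase, had -0.49 ± 0.51 and Mdh2, malate dehydrogenase, 0.003 ± 0.42.

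Regulators of mitochondrial transcription (16 of 17 tested) had a median of 0.08, which was -0.065 with the side as a block, 9 positive values and 0 called. Ppargc1a, the coactivator PGC-1alpha that promotes mitochondrial biogenesis, was dim, with signals of 46.8, 59.4 and 36.6 in Ly6G+ DC, compared with 131, 127 and 84.2 in Ly6G- DC. The groups did not overlap, and the value was -1.03 ± 0.43, with an unadjusted p of 0.037 and a limma adjusted p of 0.71. It was -1.01 with the side as a block. The Ly6G+ signals were close to the 40th percentiles of those arrays, which were 46.6, 56.8 and 36.0. Ssbp1, which binds single-stranded mitochondrial DNA, had 0.16 ± 0.30, Nrf1 -0.20 ± 0.35, Gabpa 0.29 ± 0.30 and Tfam, which packs and transcribes mitochondrial DNA, 0.10 ± 0.30.

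Genes against mitochondrial oxidants (9 of 10 tested) had a median of -0.13, which was 0.096 with the side as a block, 3 positive values and 0 called. Gsr, glutathione reductase, had signals of 1351, 1183 and 2392 in Ly6G+ DC, compared with 570.2, 979 and 630.1 in Ly6G- DC, with no overlap. Its value was 1.13 ± 0.34 (unadjusted p = 0.0076, limma adjusted p = 0.686), and 1.11 with the side as a block. Sod2, the mitochondrial superoxide dismutase, had 0.74 ± 0.36, and Gpx1 and Gpx4, glutathione peroxidases, -0.58 ± 0.43 and -0.13 ± 0.29.

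Cell type markers were read as a check of the sorts. All 14 tested neutrophil markers had positive values with no overlap between groups, against 4.95% of all genes, and a median log2 fold change of 3.23, and 13 had an unadjusted p under 0.05, with 0 called (smallest limma adjusted p = 0.0575). Their summed signal was 88175 to 116680 in Ly6G+ DC, compared with 11409 to 29234 in Ly6G- DC. All 15 dendritic cell markers had negative values, with a median of -0.76, and 10 had no overlap, against 7.86% of all genes. Their summed signal was 108071 to 198395 against 170142 to 361461. All 15 were kept as expressed, Itgax of CD11c and the MHC class II genes of the gate among them, whereas Ly6g itself was not analysed here. Medians of the other marker lists were 0.21 for 5 neutrophil precursor genes, 0.16 for 10 macrophage, 1.15 for 4 monocyte, 0.76 for 7 mast cell, basophil and eosinophil, -0.86 for 3 T and NK, -0.18 for 5 B lymphocyte and -0.19 for 3 erythroid genes. The part of cell composition in the chain's values was not tested, and in bulk samples fewer cells of a type and less RNA per cell cannot be told apart.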

How the data were processed

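Per the labels' protocols, 200 ng of total RNA per sample was amplified from an oligo-dT primer, labelled and hybridized to Affymetrix Mouse Genome 430 2.0 arrays. The deposited files hold 1 signal intensity per probe set and array, on a linear scale. As deposited by the authors, all arrays share a mean of 250.0 once the highest and lowest 2% of values are set aside. MAS5, GCOS and Affymetrix Expression Console 2.0 are listed in the submitters' processing notes, and other settings are not given in the sources used here. Mismatch probes are subtracted by MAS5, which makes dim values noisy. The number of arrays limits the precision.

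Of 45101 probe sets, 34945 had 1 gene symbol in the platform's annotation after leaving out 64 controls. All 82 members matched RefSeq (GRCm38.p6) by Entrez identifier. A gene was represented by the probe set with the highest mean log2(signal + 16) over the 6 arrays and tested if that probe set's signal lay above its array's 40th percentile on at least 3 arrays, which left 13237 genes. Fold changes are on the log2(signal + 16) scale, which understates those of dim genes. The test was limma 3.58.1, run in R 4.3.3 (intensity trend, group alone, two-sided, Benjamini-Hochberg over all genes, threshold 0.05), after a check on simulated data. Arrays were assigned to the low or high side by where the mean log2 signals of 18 hybridization control probe sets lay farthest apart. Alternatives were other scalings, pseudocounts, filters and variance models, blocks, the mean of a gene's probe sets and leaving out each array.

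The members, lists, alternatives and tests were chosen with earlier results of these data known. Named genes were, per complex, the 2 brightest, the highest and lowest log2 fold change and tissue forms, and per pathway list the 2 brightest and both extremes. Others, among them Ndufb8, Ndufs4, Ndufs5, Uqcrfs1, Atp5pb, Atp5b, Atp5l, Tfam and the probe set pairs, were chosen after their values were seen.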

Additional observations from a re-analysis of the deposited data

How the results depend on the processing

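The 80 respiratory chain genes held 0 calls under all 20 alternatives, of which 18 were listed beforehand and 2, the low and the high control side alone, were chosen after seeing the data. Calls over all genes numbered 2 with quantile normalization, 8 with a common median, 10 with a pseudocount of 64, 1 without the intensity trend, 9 with the control side as a block, 19 with the array name as a block, 2 with the mean of a gene's probe sets, 18 with low-side arrays alone and 1 with high-side arrays alone. They ran from 0 to 26 when 1 array was left out (26 without Ly6G- DC 1, 14 without Ly6G- DC 2). Members at an unadjusted p under 0.05 numbered 6 of 80 with a common median (8.74% of all genes), 1 with the side block (7.39%), 5 with the array name block (12.1%), 1 with the mean of probe sets (7.46%), 3 on the high side alone (4.60%) and 0 to 16 with 1 array left out (2.83% to 14.6%).

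The replicate block gave 19 calls over all genes and 3 of 80 members at an unadjusted p under 0.05, against 11.9% of all genes. Both sorts came from the same cultures, but the labels do not say that a number marks a culture. Because the labels leave this open, the numbers were not taken as pairs. Deviations of same-numbered arrays correlated at 0.50, 0.22 and -0.05, and those of differently numbered arrays at -0.47 to 0.32. These values cannot decide the pairing, since they also carry the side, and the number 3 arrays lie on different sides.

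With a common median the median log2 fold change was 0.50 in the chain, 0.50, 0.44, 0.18 and 0.61 in complexes I, III, IV and V, and 0.24 over all genes. With the side block it was 0.082 in complex IV and 0.027 in complex V. On the low side alone it was -0.22 in complex II and -0.064 in complex III, and on the high side alone -0.10 in complex III and 0.0021 over all genes. With 1 array left out it ran from 0.07 to 0.22 in the chain, 0.036 to 0.75 in complex II, -0.052 to 0.47 in complex III, -0.42 to 0.011 in complex IV and 0.076 to 0.50 in complex V. The causes were not tested. Of 577 single-gene values under the alternatives, 75 had the opposite sign, and 0 of these were called.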
